A study of Mus musculus with 20 samples.

Results

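The genes described here write, maintain or remove cytosine methylation in mouse DNA. The list held 8 genes: the maintenance genes Dnmt1 and Uhrf1, the de novo genes Dnmt3a, Dnmt3b and Dnmt3l, and the erasers Tet1, Tet2 and Tdg. Members were all probes that the platform annotation assigned to 1 of these symbols. That gave 13 of the 45281 probes on the array, for 7 of the 8 genes among 19057 annotated genes, and no probe was named for Tet2. A probe was taken as above background on an array when its detection p, which sets it against negative control beads, was under 0.01. By that measure 6 genes were above background on at least 3 of the 20 arrays, and all 3 Dnmt3a probes were at background on all 20.

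RNA was hybridised to Illumina bead arrays from embryonic stem cells (ESC) and embryonic fibroblasts (MEF), all on a C57BL/6 background. Each cell type was homozygous (hom) or heterozygous (het) for the tm1a allele of Mysm1, or wild type (wt). There were 3 hom, 3 het and 3 wt ESC samples, and 3 hom, 4 het and 4 wt MEF samples. Mysm1 encodes a deubiquitinase of histone H2A, and tm1a is a knockout-first gene-trap allele. The ESC samples of a genotype were separately passaged cultures, not separate animals, so their p-values measure the spread between passages. The MEF samples came from different animals.

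DNA methylation in mammals sits mainly on cytosines followed by guanine. DNMT1, guided by UHRF1 to newly copied DNA, carries the pattern through cell division, and DNMT3A and DNMT3B, helped by the catalytically inactive DNMT3L, place new marks. TET enzymes oxidise methylcytosine, and TDG cuts out the oxidised products for base excision repair. In mouse ESC Dnmt3b, Dnmt3l and Tet1 are known to be abundant.

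Before the member genes were compared, the arrays were checked against their labels. The array of MEF hom 3 was brighter than the rest, with a raw signal of 95.7 at its median probe against 53.2 to 59.9 on the others. All 10 ESC markers were above background in each ESC sample, against 1 or 2 of 10 in each MEF sample, where Nanog and Sox2 were at background throughout. Mysm1 in ESC arrays normalized together had log2 intensities of 6.47, 5.42 and 4.81 in hom 1 to 3, 4.45, 6.69 and 6.67 in het 1 to 3, and 7.69, 7.48 and 7.65 in wt 1 to 3. Hom 3 and het 1 were at background. The libraries labelled ESC het 1, under every hom value, and ESC hom 1, close to het 2 and het 3, thus went against their labels, and the ESC comparisons were repeated without both. The hom minus wt log2 difference of Mysm1 was -2.04 in ESC (limma, adjusted p = 0.297, and 0.0462 with replicate number as a block) and -2.07 in MEF (adjusted p = 0.0046), where hom 3 was at background. No het comparison of Mysm1 passed, with het minus wt at -1.67 in ESC (adjusted p = 0.952) and -0.84 in MEF (adjusted p = 1).

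Dnmt1 and Uhrf1, the maintenance pair, were higher in ESC than in MEF. Dnmt1 (GRCm38.p6, chr9:20907206-20959888) copies methylation onto the new strand. On the scale of all 20 arrays normalized together, its log2 intensity in wt was 8.85, 8.63 and 8.82 in ESC, against 7.63, 8.10, 8.17 and 7.64 in MEF. The lowest wt ESC value lay above the highest wt MEF value, as it did for 32.8% of all 9961 genes. The log2 difference was 0.88 ± 0.217 (SE), a fold of 1.84, with adjusted p = 0.00217 in limma after Benjamini-Hochberg adjustment over all 17067 probes tested. In bulk RNA a change in how many cells express a gene and a change in RNA per cell cannot be told apart.

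Uhrf1 (chr17:56303337-56323486) binds hemimethylated DNA and recruits DNMT1. In wt its log2 intensity was 10.56, 10.20 and 10.47 in ESC, against 8.60, 8.89, 9.30 and 8.74 in MEF. The ESC and MEF values did not overlap. The log2 difference was 1.53 ± 0.194 (SE), a fold of 2.89 (limma, adjusted p = 3.47e-06). A further Uhrf1 probe was at background on all 20 arrays.

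The RefSeq promoters of this pair are shown because one at each gene holds the same E2F-type word. Each runs from 250 bases before to 50 after an annotated start, and RefSeq lists 3 such starts for Dnmt1 and 2 for Uhrf1. Capitals mark TTTCGCGC and TTTGGCGC, or their reverse complements, in the promoter at chr9:20952574-20952873 (minus strand) and that at chr17:56304063-56304362 (plus strand).
Dnmt1: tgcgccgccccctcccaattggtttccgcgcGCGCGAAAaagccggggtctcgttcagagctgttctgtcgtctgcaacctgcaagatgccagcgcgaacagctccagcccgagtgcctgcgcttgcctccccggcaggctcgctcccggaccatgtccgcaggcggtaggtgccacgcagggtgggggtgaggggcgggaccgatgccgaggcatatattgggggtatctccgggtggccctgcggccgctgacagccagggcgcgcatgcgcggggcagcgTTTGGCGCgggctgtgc
Uhrf1: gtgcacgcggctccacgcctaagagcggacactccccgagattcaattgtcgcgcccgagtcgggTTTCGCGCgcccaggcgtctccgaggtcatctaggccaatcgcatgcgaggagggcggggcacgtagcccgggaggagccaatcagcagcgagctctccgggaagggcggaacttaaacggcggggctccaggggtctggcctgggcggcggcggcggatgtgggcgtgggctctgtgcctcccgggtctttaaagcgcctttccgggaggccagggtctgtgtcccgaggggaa
TTTCGCGC occurred on either strand in both, against 0.323% of 32851 RefSeq promoters, and TTTGGCGC in that of Dnmt1, against 0.514%. Each of these promoters held 33 CG pairs, against a median of 7 over all promoters. The other starts held 12 and 2 for Dnmt1 and 12 for Uhrf1, and neither marked word. The arrays do not show which start was used. The search, on both strands, covered 16 words. They were the E2F-type words TTTCGCGC, TTTGGCGC and TTTCCCGC, the octamers ATGCAAAT and ATGCTAAT, the SOX-type word CATTGT with the HMG-box word ACAAAG, and the ESRRB-type word TCAAGGTCA with its inner nuclear receptor word AAGGTCA. The rest were the NFY box CCAAT, the NRF1 palindrome, the ETS word CCGGAAGT, the long and short GC boxes GGGGCGGGG and, lying inside it, GGGCGG, the G-rich word GGGAGGG and the KLF-type word GGGTGTGG. Beside the marked words, the NRF1 palindrome and GGGAGGG lay in the printed Dnmt1 promoter, against 0.971% and 21.95% of all promoters. CCAAT and GGGCGG lay in both printed promoters, against 37.41% and 35.66%. These percentages are over all promoters, not over those of like CG content. A match is a run of letters and says nothing of binding.

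The de novo genes Dnmt3b and Dnmt3l were far higher in ESC than in MEF. Dnmt3b (chr2:153649411-153687730) is a de novo methyltransferase. Its log2 intensity in wt was 12.30, 11.79 and 12.32 in ESC, against 6.60, 6.57, 6.60 and 6.61 in MEF. Dnmt3b was above background on all 11 MEF arrays, where it lay far under every ESC value. The log2 difference was 5.54 ± 0.178 (SE), a fold of 46.7 (limma, adjusted p = 4.84e-14). The other Dnmt3b probe was above background in every ESC and in no MEF sample, so it gave only a bound. It was at least 5.01-fold higher in ESC in hom, at least 4.75-fold in het and at least 4.54-fold in wt, where the bound sets the ESC mean against the lowest signal above background on each MEF array.

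Dnmt3l (chr10:78042287-78063622) has no catalytic activity and stimulates the de novo enzymes. Its log2 intensity in wt was 13.02, 12.46 and 12.49 in ESC, against 5.09, 5.88, 6.04 and 5.43 in MEF. The log2 difference was 7.05 ± 0.297 (SE), a fold of 132 (limma, adjusted p = 2.08e-12). In MEF this probe was above background in 1 of 3 hom, 2 of 4 het and 4 of 4 wt samples. The other Dnmt3l probe differed by a log2 of 6.87 ± 0.253 (SE) in wt and was at least 159-fold higher in hom ESC, since no hom MEF array detected it.

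Dnmt3a (chr12:3801559-3914443), the other de novo methyltransferase, could not be compared. Its brightest probe had group means of 4.29 to 4.39 on the log2 scale in all 6 groups, and no Dnmt3a probe had a detection p below 0.122 on any array. A signal at background gives no level for the gene.

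Tet1 was much higher in ESC, while Tdg did not pass the test. Tet1 (chr10:62804570-62887469) oxidises methylcytosine. Its log2 intensity in wt was 10.13, 9.78 and 10.05 in ESC, against 5.70, 4.78, 4.66 and 5.47 in MEF. Of the MEF arrays, 2 of 3 hom, 3 of 4 het and 2 of 4 wt (wt 1 and wt 4) were above background. The log2 difference was 4.83 ± 0.283 (SE), a fold of 28.5 against a MEF mean that includes these arrays at background (limma, adjusted p = 2.36e-10).

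Tdg (chr10:82629814-82650799) removes the oxidised bases. Its log2 intensity in wt was 6.83, 6.97 and 7.23 in ESC, against 5.58, 6.94, 7.15 and 5.50 in MEF. The ESC values overlapped those of MEF wt 2 and wt 3 and lay above those of wt 1 and wt 4. The log2 difference was 0.72 ± 0.415 (SE), with a 95% interval of -0.16 to 1.59 (limma, adjusted p = 0.15).

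The promoters of Dnmt3b, Tet1 and Dnmt3l are shown because they differ in CG content while all 3 genes were higher in ESC. Capitals mark CG pairs in the RefSeq promoters of Dnmt3b at chr2:153649199-153649498 (plus strand), Tet1 at chr10:62887275-62887574 (minus strand) and the first listed start of Dnmt3l at chr10:78042037-78042336 (plus strand). RefSeq lists 3 starts for Dnmt3l, and the arrays do not show which was used.
Dnmt3b: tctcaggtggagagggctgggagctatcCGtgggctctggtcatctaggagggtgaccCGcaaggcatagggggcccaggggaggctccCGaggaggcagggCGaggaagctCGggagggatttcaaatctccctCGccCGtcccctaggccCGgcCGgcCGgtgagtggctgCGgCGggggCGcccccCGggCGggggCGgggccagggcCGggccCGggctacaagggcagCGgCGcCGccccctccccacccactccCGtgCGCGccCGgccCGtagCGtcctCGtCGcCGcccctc
Tet1: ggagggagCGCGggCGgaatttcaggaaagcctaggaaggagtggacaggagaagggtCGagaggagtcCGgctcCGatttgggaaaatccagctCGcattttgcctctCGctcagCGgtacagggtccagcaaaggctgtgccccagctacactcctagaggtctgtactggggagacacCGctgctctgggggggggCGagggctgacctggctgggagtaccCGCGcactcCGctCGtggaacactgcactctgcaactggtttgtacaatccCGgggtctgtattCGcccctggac
Dnmt3l: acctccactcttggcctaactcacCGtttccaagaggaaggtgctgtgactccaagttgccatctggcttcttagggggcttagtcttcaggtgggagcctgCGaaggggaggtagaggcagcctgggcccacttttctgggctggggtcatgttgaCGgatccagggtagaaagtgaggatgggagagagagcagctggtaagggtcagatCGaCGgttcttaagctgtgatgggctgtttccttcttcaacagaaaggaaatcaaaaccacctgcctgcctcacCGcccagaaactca
They held 30, 17 and 6 CG pairs, and 88.3%, 68.6% and 43.6% of all RefSeq promoters held fewer. The other Dnmt3l starts held 4 and 3.

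The same 5 genes were higher in ESC in each genotype. In limma 5 of 6 were higher in hom, against 30% of 9961 genes, 5 of 6 in het, against 29.9%, and 5 of 6 in wt, against 32%. The member median log2 difference was 2.89 in hom, 2.97 in het and 3.18 in wt, against 0.02, 0.03 and 0.05 over all genes. Tdg did not pass in hom (0.80 ± 0.444 SE, adjusted p = 0.14) or het (0.53 ± 0.415 SE, adjusted p = 0.298). Dnmt1 had a log2 difference of 0.77 in hom and 0.75 in het, and its call was lost in both under median scaling (0.55, adjusted p = 0.177 and 0.60, adjusted p = 0.114) and, in wt and het, with slide as a fixed block. No slide held both cell types of 1 genotype, and wt MEF 4 was the only MEF array on a slide with ESC arrays. Without the libraries labelled het 1 and hom 1, the call of Dnmt1 was lost in hom (0.67, limma, adjusted p = 0.0512). The other calls in hom and all those in het were kept.

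**Figure D1:**
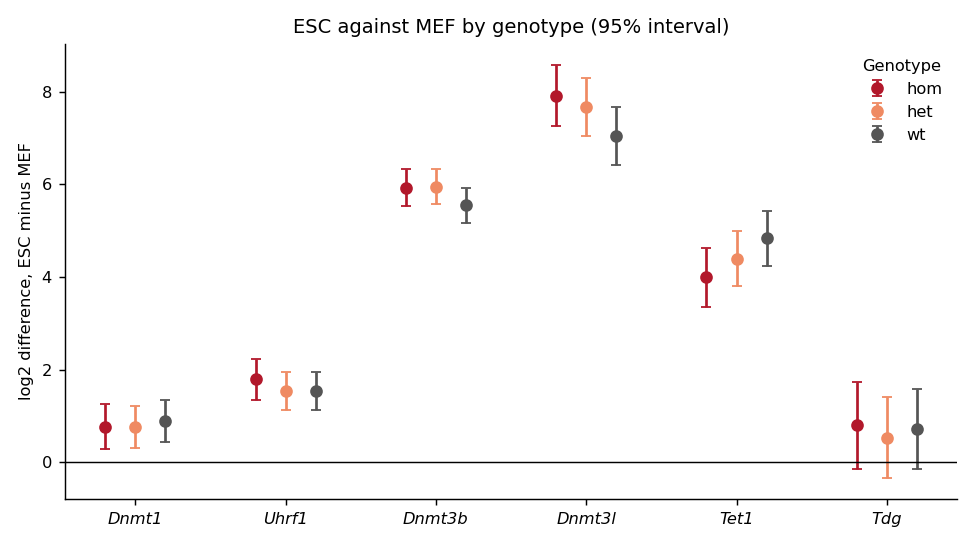
Log2 difference of ESC minus MEF for each gene and genotype (y axis), with 95% intervals from limma over all 20 arrays. In hom, het and wt Dnmt3l lies at 7.92, 7.68 and 7.05, Dnmt3b at 5.92, 5.95 and 5.54 and Tet1 at 4.00, 4.40 and 4.83, with MEF arrays at background for Dnmt3l in hom and het and for Tet1 in each genotype, while the Tdg intervals cross 0.

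For all 6 genes the 3 ESC group means lay above the 3 MEF group means. ESC and MEF of a genotype did not overlap for Dnmt1, Uhrf1, Dnmt3b, Dnmt3l and Tet1, which held for 34.5% of all genes, higher in ESC, in hom, 29.4% in het and 32.8% in wt. Tdg overlapped in het and wt, but in hom it ran from 7.03 to 7.23 in ESC against 5.95 to 7.01 in MEF. Within a cell type neighbouring groups overlapped in range, with 1 exception, Tet1 in het against hom ESC. Spread within groups differed between cell types. The pooled SD within groups was 0.771 for Tdg in MEF, against 0.149 in ESC, and 0.114 for Dnmt3b in MEF, against 0.326 in ESC.

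Hom ESC were compared with wt ESC to ask what the allele did to these genes. Without a block, 0 of 6 genes passed in limma, against 0% of 8664 genes, although 1748 of 14502 probes had an unadjusted p under 0.05. ESC samples with the same replicate number deviated from their group means together, so the number was also fitted as a block, and then 1 of 6 genes passed and was lower, Tet1, against 2.55% of genes lower and 1.75% higher.

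Tet1 on the scale of ESC arrays normalized together was 9.51, 9.19 and 9.47 in hom 1 to 3, 9.52, 9.60 and 9.85 in het 1 to 3, and 10.07, 9.70 and 9.99 in wt 1 to 3. Every hom value lay below every wt and every het value, and het and wt overlapped. Groups without overlap and lower in hom were seen for 10.2% of the 8664 genes against wt and 3.47% against het. Hom minus wt was -0.53 on the log2 scale, 69.4% of the wt level, with an SE of 0.142 and adjusted p = 0.296 without the block and an SE of 0.106 and adjusted p = 0.0258 with it (limma). The differences within numbers 1, 2 and 3 were -0.56, -0.51 and -0.52. The exact permutation test gave p = 0.1, the smallest that 3 against 3 allows. With the block, Tet1 passed in 11 of 16 fits, and was lost without wt 1 (adjusted p = 0.0774), wt 2 (0.13), wt 3 (0.0724), hom 2 (0.141) or hom 3 (0.0891). With the block and without the libraries labelled het 1 and hom 1 it was -0.51 (adjusted p = 0.017). No slide held both hom and wt ESC, so slide and genotype cannot be told apart directly. With slide as a fixed block, linked through het, the value was -0.73 (adjusted p = 0.716).

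**Figure D2:**
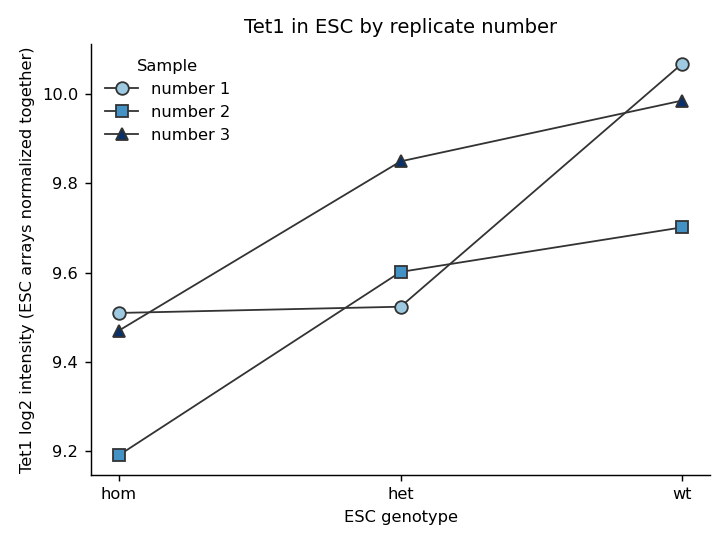
Tet1 log2 intensity (y axis, not starting at 0) in the 9 ESC samples by genotype (x axis), with lines joining samples of the same replicate number. In each of the 3 numbers hom lies below wt.

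The Tet1 mean of het ESC lay between those of hom and wt. The log2 difference of het minus wt was -0.26 (limma, adjusted p = 0.952, with the block 0.306), made of -0.54, -0.10 and -0.14 in numbers 1 to 3. Hom minus het was -0.27 (adjusted p = 0.995, with the block 0.439), made of -0.01, -0.41 and -0.38. The values of number 1 rest on the libraries labelled het 1, in both comparisons, and hom 1. Without both, with the block, Tet1 in het minus wt was -0.12 (adjusted p = 0.671) and in hom minus het -0.39 (adjusted p = 0.0757). Mean levels of markers of other cell types were highest in replicate number 2. The mean of the 9 MEF marker probes was 6.22 in hom 2, 6.63 in het 2 and 6.26 in wt 2, against 5.11 to 5.55 in the other 6 ESC samples, and Tet1 was lowest in number 2 in hom and wt. Macrophage markers had means of 6.34, 6.30 and 5.99 in number 2, against 5.32 to 5.78 in the others. Cd14, Adgre1, Tyrobp and Ptprc were at background on all ESC arrays. Of the 3 macrophage markers tested, Laptm5 had a higher mean in ESC (11.1) than in MEF (9.11). Over these 3 markers hom minus wt values ran from 0.01 to 1.05 (median 0.82) and het minus wt values from 0.02 to 0.63 (median 0.56). The part of other cell types in the Tet1 difference was not tested.

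None of the other members passed in hom ESC, with or without the block. With it, Dnmt1 differed by -0.32 (95% interval -0.54 to -0.11, adjusted p = 0.0813) and Uhrf1 by -0.16 (-0.34 to 0.02, adjusted p = 0.258). Dnmt3b differed by 0.25 (0.08 to 0.42, adjusted p = 0.0867), with 0.13 for the other Dnmt3b probe (-0.15 to 0.42, limma, adjusted p = 0.549). Dnmt3l differed by 0.16 (-0.01 to 0.33, adjusted p = 0.22), with 0.28 for the other Dnmt3l probe (adjusted p = 0.0533). Tdg differed by 0.13 (-0.15 to 0.41, adjusted p = 0.553). Without the libraries labelled het 1 and hom 1, still with the block, the values were -0.38 for Dnmt1, -0.13 for Uhrf1, 0.27 for Dnmt3b, 0.19 for Dnmt3l and -0.01 for Tdg, and none of these 5 passed (adjusted p from 0.0708 to 0.968). In het against wt 0 of 6 passed in limma, against 0% of genes without the block and 0.277% with it. In hom against het 0 of 6 passed, against 0% of genes in both fits. These comparisons had 658 and 528 probes at an unadjusted p under 0.05 without the block.

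**Figure D3:**
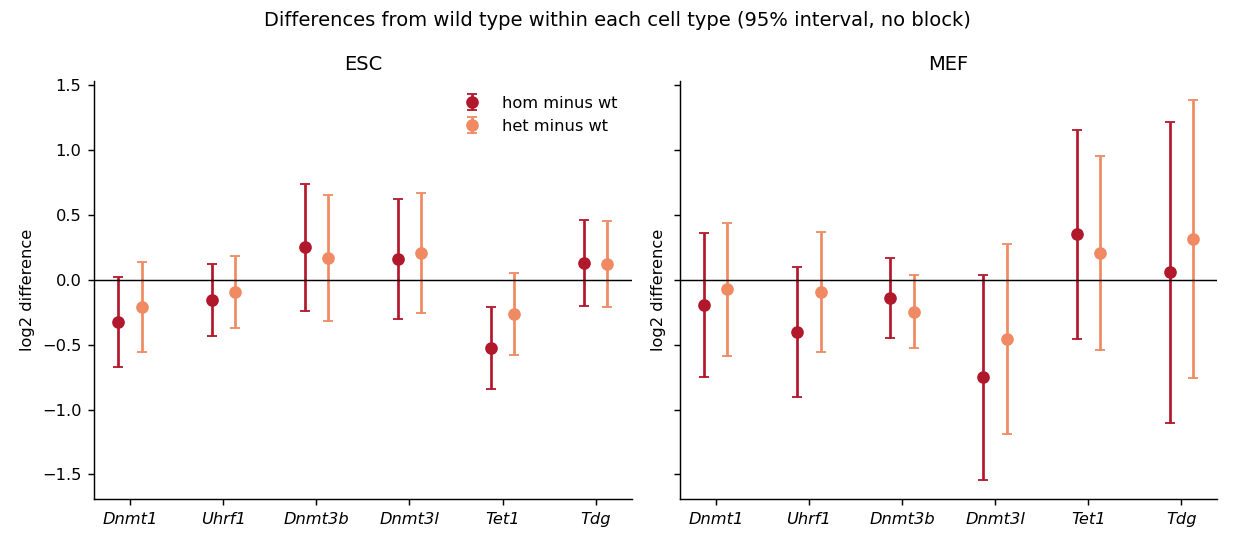
Log2 difference from wild type in ESC (left) and MEF (right) for hom and het, with 95% limma intervals and no block. The Tet1 interval in hom ESC, -0.84 to -0.21, does not reach 0.

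In MEF 0 of 6 genes passed in any genotype comparison, against 0.0111% of 8976 genes in each of the 3. No slide held both hom and wt MEF, so here too slide and genotype cannot be told apart directly. Over all probes 385 had an unadjusted p under 0.05 in hom against wt, 224 in het against wt and 242 in hom against het. Dnmt3l had the largest hom difference, at -0.75 ± 0.358 (SE), with a 95% interval of -1.54 to 0.04 (limma, adjusted p = 0.999), and only 1 of 3 hom samples was above background. Uhrf1 differed by -0.40 (-0.91 to 0.10), Tet1 by 0.35 (-0.46 to 1.16), Dnmt1 by -0.20 (-0.75 to 0.36), Dnmt3b by -0.14 (-0.45 to 0.17) and Tdg by 0.06 (-1.10 to 1.22). Het and wt MEF did not overlap for Dnmt3b, with log2 intensities, on the scale of MEF arrays normalized together, of 6.61, 6.46, 6.29 and 6.55 in het against 6.73, 6.69, 6.72 and 6.74 in wt. Such groups, lower in het, made up 0.646% of genes, and limma gave -0.25 ± 0.128 (SE, adjusted p = 1).

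The MEF arrays fell into separate sets along their first principal component, which held 67.9% of the variance and did not follow genotype. On its positive side lay hom 3, het 3, het 4, wt 2 and wt 3. On the scale of all 20 arrays, Tdg was 7.01, 7.31, 7.21, 6.94 and 7.15 in these, against 5.50 to 6.13 in the other 6 samples. Dnmt1 was 7.99 to 8.27, against 7.46 to 7.64. Uhrf1 was 8.79 to 9.30, against 8.24 to 8.76. Tet1 ran the other way, at 4.66 to 5.20 against 5.47 to 5.85. The sets overlapped for Dnmt3b, at 6.17 to 6.60 against 6.33 to 6.63, and for Dnmt3l, at 4.74 to 6.04 against 4.46 to 5.43. Proliferation genes had sample means of 7.95 to 8.23 in the first set, against 7.46 to 7.63, and MEF markers 8.04 to 8.71, against 8.90 to 9.19. Macrophage marker means were 6.38 to 6.94, against 7.16 to 8.23. These sets were defined from the arrays and were not tested. With the component as a covariate 0 of 6 genes passed.

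**Figure D4:**
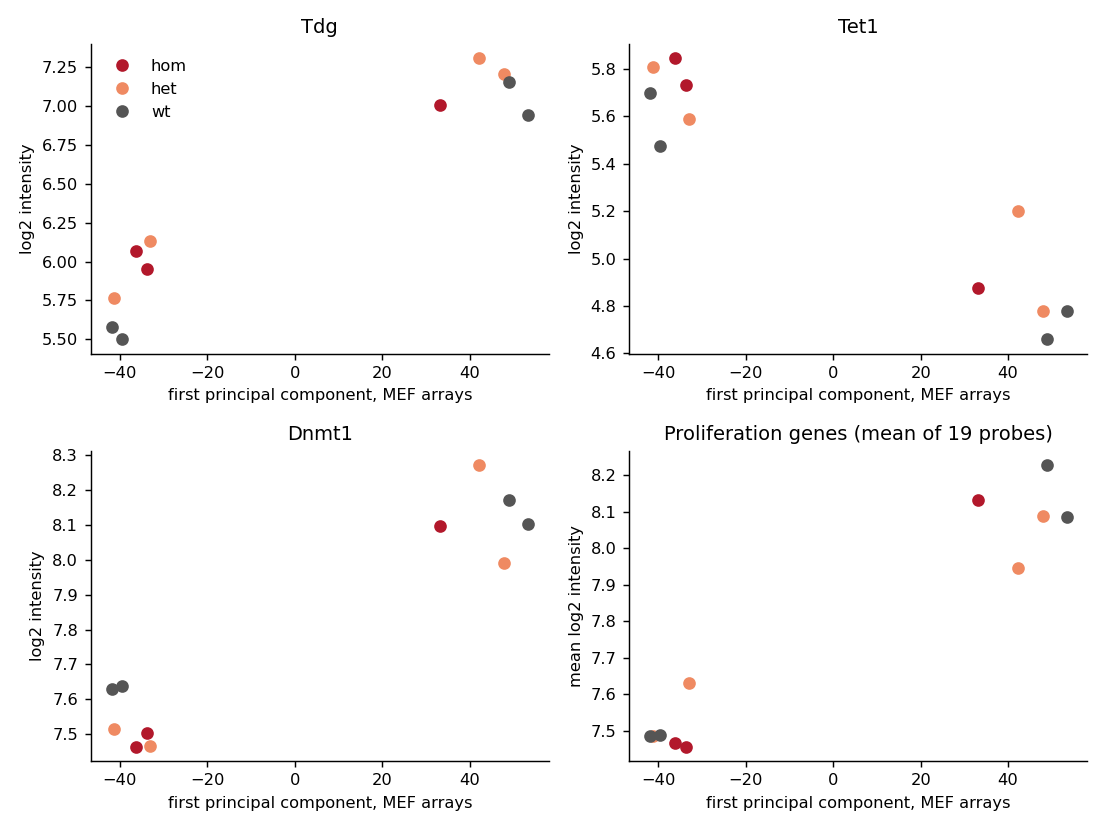
Tdg, Tet1 and Dnmt1 log2 intensity and the mean of 19 proliferation probes (y axes) against the first principal component (x axes) in the 11 MEF samples, coloured by genotype. Each genotype has samples in both sets.

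Whether a genotype difference itself differed between cell types was tested as an interaction, which 0 of 6 members and 0% of 9961 genes passed in limma, with 887 probes for hom and 458 for het at an unadjusted p under 0.05. For hom, Tet1 had -0.84 ± 0.415 (SE, adjusted p = 0.97) and Dnmt3l 0.87 ± 0.434 (SE, adjusted p = 0.97). Without the libraries labelled het 1 and hom 1 these were -0.89 (adjusted p = 0.839) and 0.72 (adjusted p = 0.892). So the lower Tet1 of hom ESC was not shown to be particular to ESC.

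The genes most alike in pattern over the 20 samples were found by the root mean square difference of log2 intensity after centring each gene. Sart3 (0.0978) and Abcf1 (0.11) were closest to Dnmt1, and 2810004N23Rik (0.176) and Tcof1 (0.18) to Uhrf1. Pla2g1b (0.217) and Tdrd12 (0.24) were closest to Dnmt3b, and Dppa4 (0.41) and Esrrb (0.503) to Dnmt3l. Sh3gl2 (0.3) and Lrrc34 (0.33) were closest to Tet1, and Pdlim1 (0.152) and Dusp6 (0.171) to Tdg. The measure takes in the difference between ESC and MEF, so genes alike by it may differ within a cell type. In hom minus wt ESC, Esrrb had -0.65 against 0.16 for Dnmt3l, while Lrrc34 had -0.64 against -0.53 for Tet1.

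Partners of the members were set side by side in wt ESC and wt MEF. Among maintenance partners 3 of 7 tested were higher and 1 lower, with a list median of 0.29. Lig1, a DNA ligase of replication (2.37 ± 0.191 SE), Cdca7 (2.35 ± 0.18 SE) and Usp7, a deubiquitinase that binds DNMT1 (1.41 ± 0.171 SE), were higher and Uhrf2, the UHRF1 paralogue, was lower (-1.20 ± 0.166 SE). In a list of de novo cofactors, recruiters and other regulators of methylation 8 of 11 were higher and 0 lower, with a median of 0.88. Not every gene of this list helps de novo methylation, so the count does not describe de novo helpers alone. Of the 11, 2 were above background on no MEF array, so that they entered through ESC alone, and these 2 were among the 8. Dppa3, which protects methylation in the early embryo, was above background on no MEF array and was at least 17.0-fold higher (limma, adjusted p = 1.19e-12), and Trim28, the corepressor of KRAB zinc finger proteins was higher by 1.96 ± 0.15 (SE).

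Methyl-CpG readers split, with 2 of 5 higher and 2 lower. Mbd2, at background on all 11 MEF arrays, was at least 8.15-fold higher (adjusted p = 2.14e-12), and Mbd1 differed by -1.68 ± 0.286 (SE). In active demethylation and base excision repair 8 of 15 were higher and 2 lower, among them Ung, a uracil glycosylase (3.26 ± 0.227 SE), and Parp1, a sensor of DNA breaks (2.51 ± 0.158 SE). In methyl donor and 2-oxoglutarate supply 6 of 14 were higher and 2 lower. Of the 6, Gnmt was above background on no MEF array and so entered through ESC alone. Mthfd1 differed by 2.36 ± 0.311 (SE) and Ahcy, which clears S-adenosylhomocysteine, by 1.54 ± 0.149 (SE). Of 20 annotated germline genes known to be silenced by DNA methylation 10 were tested, and 6 of these were above background on no MEF array, so that they entered through ESC alone. Among the 10, 8 were higher and 0 lower, and 5 of the 8 were at background on all 11 MEF arrays. Tex19.1 was at least 27.6-fold higher (adjusted p = 2.09e-11), Rhox9 at least 14.3-fold (adjusted p = 2.10e-08) and Piwil2 at least 5.06-fold (adjusted p = 5.71e-09). Over all 9961 genes 32% were higher and 27.2% lower. Proliferation genes were higher in 11 of 16.

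In hom against wt ESC 0 genes of these lists passed without the block. With it, Lig1 (-0.50), Trim28 (-0.34), Mbd2 (-0.50) and Parp1 (-0.49) were lower, and Zbtb33, a methyl-CpG binding zinc finger protein (0.64), Gadd45g (0.78) and the germline gene Taf7l were higher, at adjusted p from 0.0155 to 0.047 in limma. Taf7l was at background on all 3 wt ESC arrays, above it on all 3 hom arrays and at least 1.34-fold higher. It was above background on 4 ESC arrays in all, so it entered the test through hom alone. The genes that passed were 1 of 7 maintenance partners, 1 of 11 in the cofactor list, 2 of 5 readers, 2 of 15 demethylation and repair genes and 1 of 9 germline genes, against 4.31% of all genes in either direction. The germline count rests on Taf7l and so is no result about that list. In methyl donor and 2-oxoglutarate supply 0 of 14 passed. Of 10 ESC markers, 2 were lower, Esrrb (-0.65) and Tfcp2l1 (-0.45), and 0 higher, with 3 at positive values of up to 0.24. Of 4 primed epiblast markers, Pou3f1 was higher (1.06), and Lefty2 had -0.33 (adjusted p = 0.314). Of 3 macrophage markers, Lyz2 was higher (1.05, adjusted p = 0.0343). Their part in the Tet1 difference was not tested. Of 16 proliferation genes Mcm5 (-0.36), Mcm6 (-0.39) and Cdt1 (-0.31) were lower and Gins2 (0.53) was higher. Without the libraries labelled het 1 and hom 1, 10 of these 15 genes passed and 14 of the 14 still tested kept their sign. Mbd2 (adjusted p = 0.056), Lyz2 (0.065), Cdt1 (0.064) and Gins2 (0.118) were lost, and Taf7l was not tested.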

How the data were processed

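RNA of 9 ESC and 11 MEF samples was measured on Illumina bead arrays, with 1 array for each sample. Per the file headers, the deposited table gives a mean bead intensity, its bead standard error (a score), a detection p-value and a bead count per probe. The authors' series matrix holds their normalized intensity, used on the log2 scale as an alternative to the log2 of the deposited signal. BeadStudio and limma are the tools in the submitters' processing notes; their versions are not given in the sources used here.

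The limma 3.58.1 function nec (R 4.3.3, offset 16) corrected the background, and quantile normalization followed, within a cell type for genotype comparisons and over all 20 arrays otherwise. Probes with detection p under 0.01 on at least 3 arrays were tested (14502 in ESC, 15125 in MEF, 17067 over all) with lmFit and eBayes with a trend, two-sided, adjusted by Benjamini-Hochberg over all probes tested, at 0.05. Residual degrees of freedom were 6, 8 and 14, and 4 in ESC with the block. The fits were tested on simulated data. Of 45281 probes, 34885 had 1 gene, 18 several and 10378 none. A gene is given by its brightest probe, and array number limits the precision.

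Replicate numbers come from the labels. Deviations of same-numbered ESC samples correlated in all 9 pairs (0.367 to 0.773), so the numbers pair ESC samples. The design as written had no block in the main fits and named the replicate number only as an alternative block. In MEF 7 of 10 pairs were over 0.1 (-0.818 to 0.802), so the numbers do not pair them.

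The members and lists were chosen with earlier results of these data known, and the promoter words after values were seen. All members are named, and from each other list up to 4 genes with the smallest p in wt ESC against wt MEF and up to 3 in hom against wt ESC, plus 2 genes most like each member. Cdt1, named beside these, was chosen after its values were seen. Some other genes, among them Sox2, Gnmt and several macrophage markers, were named for their detection or level, whatever their p. Sequences are from RefSeq, build GRCm38.p6. Figures were drawn with matplotlib 3.10.9.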

Additional observations from a re-analysis of the deposited data

How the results depend on the processing

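The number of members called kept within 1.5 times of the value given in nearly all alternatives. In hom against wt ESC the replicate block gave 1 in place of 0. It also gave 1 with no background correction, median scaling, series matrix values, no filter, array weights, or when the libraries labelled het 1 and hom 1 were left out. With an array left out it gave 0 to 1. Combinations with the block were chosen after seeing the data. The block changed no other call of a member within a cell type. Testing only probes detected on every array left 4 members, since Dnmt3l and Tet1 were not tested. Dnmt1, Uhrf1 and Dnmt3b kept their calls in hom, het and wt ESC against MEF. The count for hom against het MEF also moved within slide 4. That fit set 2 hom arrays against het 4, which lay on the other side of the first principal component. Member differences ran from -1.19 for Tdg to 1.07 for Tet1. The lone sample is assumed to vary like the others, so no count is given.

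For single members, ESC against MEF kept its call in 549 of 558 values, with 5 weaker and 4 stronger, all of Dnmt1 or Tdg. Tdg passed in wt without MEF wt 3 (1.00, adjusted p = 0.0474). No called value changed sign. Values not called changed sign in 30 of 684 in ESC, 19 of 423 in MEF and 27 of 372 interactions. For a signal at background, as for Dnmt3a, no level is given.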
